A study of Mus musculus with 4 samples.

Results

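Lmo2 and 9 transcription factors that act with it in blood and endothelial cells were measured in bulk liver tumours of 4 mice. The 10 members, Lmo2, Ldb1, Tal1, Lyl1, Tcf3, Gata1, Gata2, Fli1, Erg and Runx1, are 10 of the 55487 genes of the deposited count table. Lmo2 was selected on its counts in these same libraries, where it stood among the genes with the clearest separation between the groups, so its difference is described here and not tested. The other 9 were taken for their known roles beside it, with those results in view. The model combines Alb-cre, a Cre recombinase driven by the albumin promoter, with H11-myc, and its mice develop hepatocellular carcinoma driven by c-Myc. The labels give 2 tumours as wild type (W1 and W2 below) and 2 as liver conditional knockouts of Tfrc, the transferrin receptor gene (K1 and K2). Each tumour is taken here as that of a separate mouse. Albumin-driven Cre acts in hepatocytes, so blood and vessel cells of a knockout tumour keep Tfrc. The sources used here do not spell out which of these alleles the wild type mice carry, or the age and sex of the mice.

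LMO2 is a small protein of paired LIM zinc-binding domains that does not bind DNA itself. It bridges LDB1, a protein that joins complexes at distant sites, to a pair of basic helix-loop-helix proteins, TAL1 or LYL1 with an E protein such as TCF3, and to a GATA factor. Such complexes bind E-box and GATA motifs in blood stem cells, erythroid cells, megakaryocytes and endothelium, often beside sites of the ETS factors FLI1 and ERG and of RUNX1. In a liver tumour these genes are known mainly from vessels and infiltrating blood cells, while LDB1 and TCF3 are made by most cell types.

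The libraries held 15918349 to 17052943 counts, and values are given as CPM, the count as a share of a library total scaled with TMM factors, unless another scale is named. Fold changes are log2 values, knockout minus wild type, and an adjusted p is from edgeR's quasi-likelihood test adjusted by Benjamini-Hochberg over the 16310 genes tested. Tfrc itself had 8441 counts in W1, 3603 in W2, 5407 in K1 and 3244 in K2. The groups overlapped, no deleted exon is named, and a bulk tumour holds cells without Cre, so Tfrc gave no check of the labels, and higher or lower refers to libraries as they are labelled. The mouse Myc gene had 79.5 CPM in W1, 59.9 in W2, 86.4 in K1 and 53.7 in K2. Whether its counts include reads of the H11-myc driver was not tested. Mitochondrial genes took 4.13% of counts in W2 and 8.69% to 16.63% in the other 3. That library also stood apart on the first principal component, at 86.6 against -38.5 to -11.2 for the others. Hepatocyte markers were present in each library, with Alb at 5380 CPM in W1 and 16800 to 29500 CPM in the others, and the tumour marker Afp ranged from 5.77 CPM in W1 to 140 CPM in W2.

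Lmo2 was about 5 times lower in the libraries labelled knockout. W1 had 831 counts and W2 had 854, against 174 in K1 and 147 in K2, which is 45.3, 55.5, 10.7 and 9.27 CPM. The groups lay far apart, and within each group the animals were close to each other. The wild type mean was 50.4 ± 7.23 CPM and the knockout mean 10 ± 1.03 CPM (SD, n = 2 each), a ratio of 5.04. On the log2 scale the difference was -2.33 (SE 0.33, 95% interval -3.11 to -1.56). Leaving out 1 library at a time gave -2.51 to -2.18. In bulk tissue, fewer cells of a type and less RNA per cell cannot be told apart. Per kilobase of merged exons, Lmo2 stood at 20.9 and 25.6 CPM per kb in wild type, above 84.5% of tested genes by its group mean. In knockout it had 4.96 and 4.28 CPM per kb, above 53.1% of them.

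**Figure D1:**
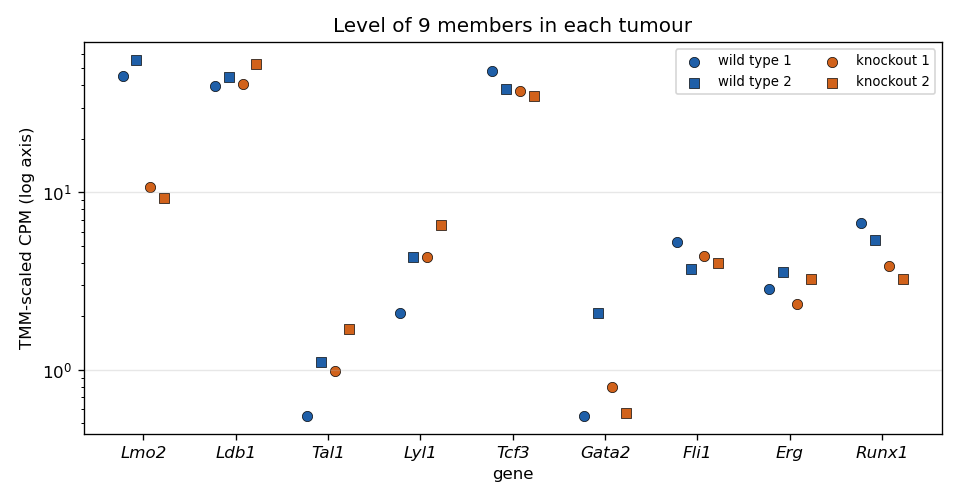
Level of 9 of the 10 members in each library (x axis, gene; y axis, TMM-scaled CPM on a log axis; blue, wild type; orange, knockout; circles, replicate 1, called W1 and K1 in the text; squares, replicate 2, called W2 and K2). The knockout values of Lmo2, 10.7 and 9.27 CPM, lie well below its wild type values of 45.3 and 55.5 CPM, while the points of the other genes lie closer together; Gata1, with 0 to 2 counts, is not drawn.

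The difference was not shared by the genes around Lmo2. The gene lies on the forward strand of chromosome 2, from 103957986 to 103981878 in mm10, with 8 annotated transcripts that merge into 6 exons. Its span overlaps 14936 bases of 4931422A03Rik on the opposite strand, but their exons share 0 bases. That gene had 29 counts in W1, 2 in W2, 15 in K1 and 17 in K2, and summing it with Lmo2 gave a log2 fold change of -2.22. Nat10, which encodes an RNA acetyltransferase, ends 196.7 kb before Lmo2 and had 53.2 and 60.2 CPM in wild type and 63.1 CPM in each knockout library. Caprin1, the gene of an RNA-binding protein 160.3 kb before it, had 373, 262, 343 and 283 CPM in the same order of libraries. Fbxo3, an F-box gene 45.8 kb after it, had 106, 81.3, 106 and 103 CPM. The log2 fold changes of these 3 genes and of Abtb2 lay between -0.02 and 0.16, with adjusted p of at least 0.887 (edgeR). Gm10912 and Gm10799, the next genes after Fbxo3, had at most 1 count a library.

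**Figure D2:**
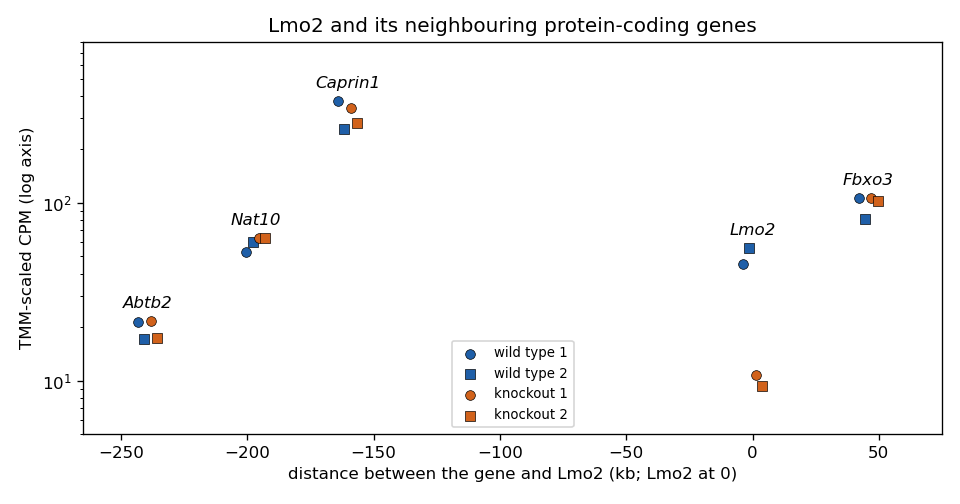
Lmo2 and the tested protein-coding genes beside it (x axis, distance from the nearer end of Lmo2 in kb; y axis, TMM-scaled CPM on a log axis; colours and symbols give the library, with small sideways shifts for legibility). The knockout points separate from the wild type points at Lmo2, where they are at 10.7 and 9.27 CPM, and lie among or beside them at Abtb2, Nat10, Caprin1 and Fbxo3.

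None of the 8 other tested members passed the threshold. The share of all tested genes called by edgeR was 0% higher and 0% lower, so this count says little about the members. At an unadjusted p under 0.05 there were also 0 of 8, beside 3.95% of tested genes higher and 4.35% lower, and by DESeq2 0 of 8, beside 0.432% higher and 0.565% lower. By limma-voom there were 0 of 8, beside 0% higher and 0.00613% lower. Of these 8 genes, 3 had estimates above 0 and 5 below 0, with a median log2 fold change of -0.15 beside 0.01 over all tested genes. The groups did not overlap for Lyl1, which was higher in knockout, and for Tcf3 and Runx1, which were lower, which is 1 and 2 of the 8. Among all tested genes the share without overlap was 21.9% higher and 20.1% lower. Gata1 was removed by the filter on low counts.

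Ldb1, the partner that holds the complex together, had a similar level in all 4 tumours. Its gene spans 46031570 to 46045214 on the reverse strand of chromosome 19. Ldb1 had 39.5 CPM in W1, 44.6 in W2, 40.5 in K1 and 52.9 in K2. The groups overlapped, with a log2 fold change of 0.15 (SE 0.3, 95% interval -0.57 to 0.87, edgeR adjusted p = 0.903). It turned to -0.06 without K2. Its exons share 177 bases with Pprc1 on the opposite strand, a gene with 537 to 888 counts. With the counts of both summed, the log2 fold change of Ldb1 was 0.44. Its level per length was 8.58 and 9.69 CPM per kb in the wild type tumours, below that of Lmo2, and 8.79 and 11.5 CPM per kb in the knockout tumours, above that of Lmo2.

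Tal1 and Lyl1, the tissue-restricted helix-loop-helix partners of LMO2, had higher group means in the knockout tumours, and neither passed. Tal1 lies on the forward strand of chromosome 4, from 115056426 to 115071755, and Lyl1 on the forward strand of chromosome 8, from 84701449 to 84704940 (both mm10, as are all positions given). Tal1 had 10 counts in W1, 17 in W2, 16 in K1 and 27 in K2, which is 0.545, 1.1, 0.987 and 1.7 CPM. The groups overlapped. The exact Poisson 95% intervals were 4.8 to 18.4 for the lowest count and 17.8 to 39.3 for the highest. These intervals meet only at their ends, and their overlap is not a test of whether the counts differ. Tal1 differed by a log2 value of 0.71 (SE 0.71, 95% interval -0.97 to 2.4, edgeR adjusted p = 0.788), with 0.24 without W1 and 1.29 without W2. Lyl1, a close relative of Tal1 that can stand in for it in adult blood formation, had 38 counts in W1, 66 in W2, 70 in K1 and 103 in K2. These were 2.07, 4.29, 4.32 and 6.5 CPM, so W2 and K1 were nearly equal. Lyl1 differed by a log2 value of 0.77 (SE 0.56, 95% interval -0.56 to 2.1, edgeR adjusted p = 0.712), with 0.3 without W1 and 1.38 without W2. All of Lyl1 lies within Nfix on the opposite strand, with 4 bases of shared exon. Nfix had 150 counts in W1, 124 in W2 and 129 in K1, but 976 in K2. With the counts of both genes summed, the value for Lyl1 was 1.83.

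The ratio of Lyl1 to Tal1 varied little among the 4 tumours. On the CPM scale it was 3.8 in W1, 3.88 in W2, 4.38 in K1 and 3.81 in K2. Each ratio rests on 10 to 27 counts of Tal1, so its counting error is wider than the differences between these values. Both genes were lowest in W1 and highest in K2. Because of this shared pattern, the windows around their start sites are shown, taken from RefSeq (build GRCm38.p6, 250 bases before to 50 after the start, in the direction of the gene). The Tal1 window is chr4:115056176-115056475 on the forward strand and the Lyl1 window is chr8:84701207-84701506 on the forward strand. Capitals mark matches, on either strand, to 4 kinds of motif. An E-box was searched as CANNTG. A site for a GATA factor was AGATAA and also TGATAA. For ETS factors CCGGAA was searched, and also CAGGAA. The RUNX motif was TGTGGT. None of the matches in these windows overlapped another.
Tal1: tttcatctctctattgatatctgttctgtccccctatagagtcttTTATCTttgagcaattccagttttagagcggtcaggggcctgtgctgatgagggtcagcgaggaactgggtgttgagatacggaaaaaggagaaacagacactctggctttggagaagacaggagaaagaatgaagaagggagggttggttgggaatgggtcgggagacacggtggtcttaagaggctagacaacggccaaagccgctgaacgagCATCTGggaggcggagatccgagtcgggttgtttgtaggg
Lyl1: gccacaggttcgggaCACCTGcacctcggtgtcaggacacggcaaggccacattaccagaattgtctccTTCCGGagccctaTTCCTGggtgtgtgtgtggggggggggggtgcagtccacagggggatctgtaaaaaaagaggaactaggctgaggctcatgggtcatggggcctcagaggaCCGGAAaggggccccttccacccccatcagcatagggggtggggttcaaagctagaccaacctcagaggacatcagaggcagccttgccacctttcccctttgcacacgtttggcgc
The windows shared an E-box match and no other motif of the 4. Tal1 held a GATA match at position -205, with the start site as 1, and 0 ETS matches, and Lyl1 held 3 ETS matches, at -181, -168 and -67, and 0 GATA matches. Of all 32851 RefSeq windows of this length, 72.3% held an E-box match, 18.6% a GATA match, 41.4% an ETS match and 16.8% a RUNX match. These matches describe letters and not binding. A second Tal1 window, at a start site inside the gene, held none of the 4 motifs. RefSeq windows were matched for 8 of the 10 members, and Lmo2 and Fli1 were without an entry. Over the 15 windows of these 8 members, 8 held an E-box, 3 a GATA, 6 an ETS and 1 a RUNX match.

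Tcf3, which encodes the widely made E proteins E12 and E47, was slightly lower in the knockout libraries without passing. It lies on the reverse strand of chromosome 10, from 80409514 to 80433647. Tcf3 had 48 CPM in W1, 38.1 in W2, 37.3 in K1 and 34.8 in K2. W1 stood above the other 3, which lay close together. The log2 fold change of Tcf3 was -0.26 (SE 0.3, 95% interval -0.97 to 0.45, edgeR adjusted p = 0.822), and it was -0.12 without W1 and -0.41 without W2. The other E protein genes varied widely between the wild type animals. Tcf12 had 34.6 CPM in W1, 5.0 in W2, 33.5 in K1 and 26.5 in K2, and Tcf4 had 18.8, 3.44, 19.2 and 7.0 CPM. W2 was the lowest library for both. Tcf12 had a log2 fold change of 0.6, which was -0.21 without W2. Without W1 it was 2.55 (edgeR adjusted p = 0.0246), a fit in which W2 is the only wild type library and is assumed to vary as the knockout libraries do.

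GATA factors of the blood lineage were close to the limit of detection. Gata1 spans 7959260 to 7978071 on the reverse strand of chromosome X, and Gata2 spans 88193891 to 88207032 on the forward strand of chromosome 6. Gata1, the master regulator of red cells and megakaryocytes, had 2 counts in W2 and 0 in W1, K1 and K2. A count of 0 allows up to 3 counts (a one-sided limit), or 0.183 to 0.188 CPM of the unscaled library totals, and such limits cover counting error only. Gata2, which acts in stem cells, mast cells and endothelium, had 10 counts in W1, 32 in W2, 13 in K1 and 9 in K2, or 0.545, 2.08, 0.802 and 0.568 CPM. W2 stood above the other 3, and W1 was the lowest on the CPM scale. The log2 fold change of Gata2 was -0.92 (SE 0.83, 95% interval -2.89 to 1.04, edgeR adjusted p = 0.765), and it was 0.33 without W2 and -1.63 without W1. The GATA factors of liver and other endoderm were well above the limit of detection: Gata4 had 4.3, 11.7, 12.1 and 9.71 CPM and Gata6 had 30.3, 12.7, 26.9 and 31.1 CPM in the same order of libraries. Neither passed (edgeR adjusted p = 0.827 and 0.802).

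The ETS factors Fli1 and Erg, which maintain endothelial identity, differed little. Fli1 lies on the reverse strand of chromosome 9, from 32422204 to 32542861, and Erg on the reverse strand of chromosome 16, from 95359169 to 95586593. Fli1 had 5.23 CPM in W1, 3.7 in W2, 4.38 in K1 and 3.97 in K2. Both knockout values lay between the wild type values, with a log2 fold change of -0.1 (SE 0.48, 95% interval -1.23 to 1.04, edgeR adjusted p = 0.964). It was 0.14 without W1 and -0.32 without W2. Erg had 2.83, 3.57, 2.34 and 3.22 CPM in the same order. The groups overlapped here too, with a log2 fold change of -0.2 (SE 0.53, 95% interval -1.45 to 1.05, edgeR adjusted p = 0.927), -0.45 without K2, -0.4 without W1, and -0.03 and -0.02 without the remaining libraries. The intervals of both genes leave room for a change of more than 2-fold in either direction.

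Runx1, which encodes a DNA-binding subunit of core binding factor and is needed for the first blood stem cells, was the other member to stand lower in both knockout libraries than in both wild type libraries, beside Lmo2 and Tcf3. It too is on the reverse strand of chromosome 16, from 92601466 to 92826149. Runx1 had 6.7 CPM in W1, 5.39 in W2, 3.82 in K1 and 3.22 in K2. The groups did not overlap, and the means were 6.05 ± 0.923 and 3.52 ± 0.43 CPM (SD, n = 2 each). Runx1 differed by a log2 value of -0.78 (SE 0.46, 95% interval -1.87 to 0.31, edgeR adjusted p = 0.664), with -0.94 to -0.65 when 1 library was left out. Its pattern over the 4 libraries was the nearest of the members to that of Lmo2, at a Euclidean distance of 1.61 on centred log2 CPM, against 1.99 to 3.21 for the other 7. The partners and paralogs of Runx1 are not counted among the members. Cbfb, its binding partner, had 33.2, 19.4, 34.1 and 35.1 CPM, and Runx3 had 7.57, 1.17, 1.54 and 1.64 CPM, with W1 alone high. Neither passed (edgeR adjusted p = 0.771 and 0.664). The outer RefSeq window of Runx1, chr16:92826025-92826324 on the reverse strand, is shown because Runx1 was the member nearest to Lmo2 in pattern and the only one whose windows held a RUNX match. Capitals mark matches to the same motifs.
Runx1: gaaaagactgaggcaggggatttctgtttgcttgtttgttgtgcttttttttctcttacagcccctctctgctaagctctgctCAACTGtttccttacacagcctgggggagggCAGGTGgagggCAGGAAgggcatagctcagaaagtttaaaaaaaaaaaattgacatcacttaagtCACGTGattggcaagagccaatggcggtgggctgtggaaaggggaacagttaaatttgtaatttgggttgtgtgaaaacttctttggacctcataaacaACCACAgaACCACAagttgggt
It held 2 RUNX matches just after the start site, at positions 29 and 37, with 3 E-box matches and 1 ETS match before it.

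**Figure D3:**
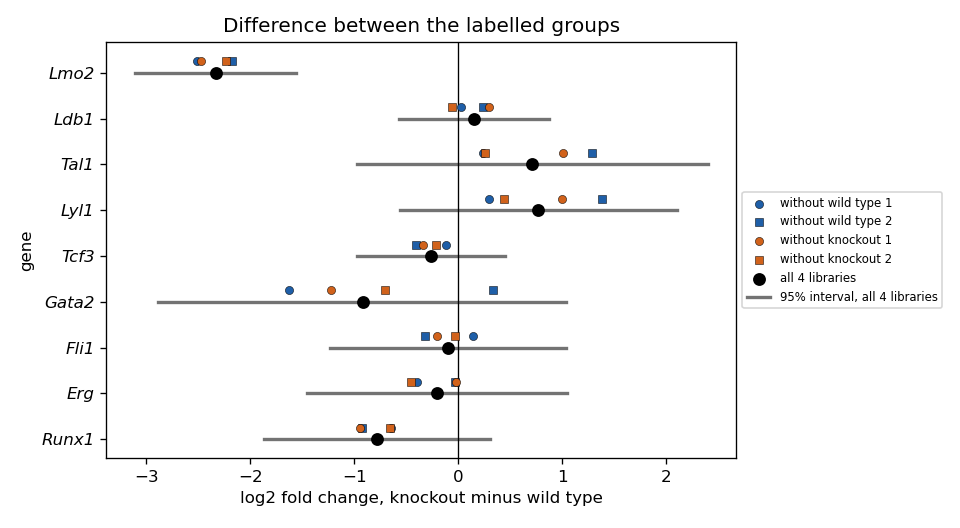
Log2 fold change, knockout minus wild type (x axis), of each tested member (y axis). Black points and grey bars give the estimate and 95% interval from all 4 libraries, and small coloured points the estimate without 1 library. Lmo2 lies at -2.33, with all its coloured points between -2.51 and -2.18. The intervals of the other 8 genes include 0. The interval of Lmo2 is a description and not a test, since Lmo2 was chosen for its difference.

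Because all members of a library share its composition, Lmo2 was also set against each partner within the library. These are ratios of CPM that were not divided by gene length, so their difference between libraries is read here and not their height. The log2 ratio of Lmo2 to Lyl1 was 4.45 in W1, 3.69 in W2, 1.31 in K1 and 0.51 in K2. Against Tal1 it was 6.38, 5.65, 3.44 and 2.44. Against Erg it was 4.0, 3.96, 2.2 and 1.53. In each of the 7 ratios to other members with at least 10 counts in every library, both knockout libraries lay below both wild type libraries, by 1.55 (Runx1) to 3.16 (Lyl1) between the group means. The endothelial adhesion genes Cdh5 and Pecam1, which mark vessel cells, gave the same order. The log2 ratio of Lmo2 to Pecam1 was 0.41 and 0.48 in wild type and -1.19 and -0.83 in knockout, and to Cdh5 it was -0.19 and 0.17 in wild type and -2.13 and -1.4 in knockout. Over the whole endothelial list, both knockout ratios lay below both wild type ratios for 23 of 25 genes. The other two were Cldn5, a tight junction gene, with linear ratios of Lmo2 to it of 13.8 in W1, 2.7 in W2, 5.27 in K1 and 2.49 in K2, and the sinusoidal gene Clec4g, which had 0 counts in W1. No test was made, since Lmo2 was chosen for its difference, which favours this order whichever gene is the denominator. The share of all tested genes with the same order was not counted.

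**Figure D4:**
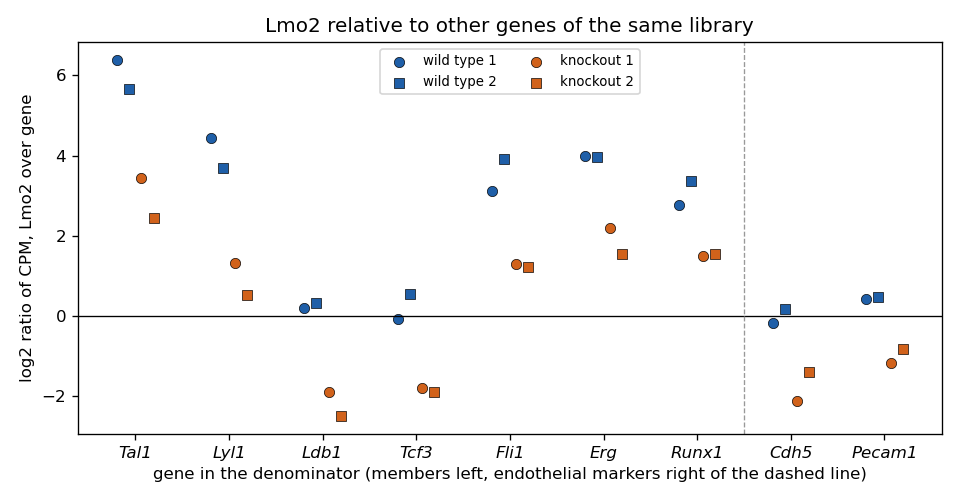
Log2 ratio of the CPM of Lmo2 to that of another gene in the same library (y axis) for 7 members and, right of the dashed line, 2 endothelial markers (x axis; colours and symbols give the library). In every column the orange knockout points lie below the blue wild type points, for instance 1.31 and 0.51 against 4.45 and 3.69 for Lyl1.

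Among 10525 named genes with a mean of at least 5 CPM, 5 had a pattern nearest to Lmo2 by the same Euclidean distance over the 4 libraries. Kcnj8, a pore subunit of ATP-sensitive potassium channels, was the nearest at 0.15. It had 23.5 CPM in W1, 25.1 in W2, 5.3 in K1 and 4.48 in K2. Adssl1, an adenylosuccinate synthase gene, followed at 0.37, Csrp1, a gene of another LIM domain protein, at 0.42, and the sialyltransferase gene St6galnac2 and the retinol-binding protein gene Rbp7 at 0.49 each. The log2 fold changes of these 4 were -2.07, -2.11, -2.22 and -2.05, and they are like Lmo2 by choice. A second identifier of St6galnac2 and the opposite-strand gene 1810032O08Rik overlap St6galnac2, so its counts are uncertain.

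None of the genes related to the members by family or complex passed with all 4 libraries. Of 28 partners and relatives of the complex, 19 were tested. Their log2 fold changes were above 0 for 13 and below 0 for 6 (median 0.37), and 0 passed by edgeR, beside 0% of all tested genes. At an unadjusted p under 0.05 there were 0, beside 3.95% of tested genes higher and 4.35% lower. By DESeq2 there were 0, beside 0.432% higher and 0.565% lower. The median over all tested genes was 0.01, and without W2 the list's median was 0.1. Lmo4, the LIM-only paralog made in many epithelia, had 9.75 and 7.02 CPM in wild type and 15.4 and 11.5 CPM in knockout (log2 fold change 0.68, edgeR adjusted p = 0.661). Lmo1 had 14 counts in W1, 3 in W2 and 0 in K1 and K2, and Lmo3 had 0 counts in all 4. Of the most abundant members, Id2, an inhibitor of E proteins, had 66.6 and 36.1 CPM in wild type and 52.9 and 85.3 CPM in knockout. Zfpm1, the GATA cofactor FOG1, had 30.6, 74.3, 64.0 and 71.0 CPM, with W1 lowest. Ssbp3, whose product protects LDB1 from breakdown, had 43.2, 48.5, 35.9 and 59.5 CPM. The smallest unadjusted p values were those of the corepressor gene Cbfa2t2 and of Zfpm2. Cbfa2t2 had 2.4 and 11.5 CPM in wild type and 2.04 and 1.89 CPM in knockout, so W2 alone was high (log2 fold change -1.82, edgeR adjusted p = 0.6). Its value was -0.29 without W2 and -2.58 without W1, where W2 is the only wild type library (edgeR adjusted p = 0.036). Zfpm2 had at most 16 counts (edgeR adjusted p = 0.628).

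Of 26 relatives among ETS and RUNX factors, 22 were tested, with 10 positive and 12 negative (median -0.12, 0.27 without W1). By edgeR 0 were called, and by DESeq2 0, beside 0.432% of all tested genes higher and 0.565% lower. At an unadjusted p under 0.05 there were 2, both lower, beside 4.35% of all tested genes lower and 3.95% higher. These 2 were epithelial ETS factors. Elf3 had 115 and 130 CPM in wild type and 38.7 and 81.7 CPM in knockout (log2 fold change -1.02, edgeR adjusted p = 0.591), with -1.66 without K2 and -0.61 without K1. Ehf had 4.74, 3.83, 1.23 and 1.7 CPM (log2 fold change -1.54, edgeR adjusted p = 0.568). Ets2 had 63.9 and 66.7 CPM in wild type and 54.2 and 57.2 CPM in knockout, and the repressor gene Erf had 50.3, 45.7, 52.0 and 74.7 CPM. Spi1, the myeloid ETS factor PU.1, had 23.1 and 29.6 CPM in wild type and 16.7 and 15.5 CPM in knockout (log2 fold change -0.71, edgeR adjusted p = 0.628).

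Markers of cell types in which the members act were set beside Lmo2, and 0 of them passed by edgeR in any list. Endothelial markers were lower for 22 of 25 genes, with a median of -0.67 beside 0.01 over all tested genes, and 7 were lower at an unadjusted p under 0.05, beside 4.35% of all tested genes. The summed level was 472 and 716 CPM in wild type and 391 and 398 CPM in knockout. Leaving out W2 gave a median of -0.21 and leaving out W1 one of -1.0, and the part of endothelial content in the Lmo2 difference was not tested. Red cell markers had a median of -2.81 over 7 tested of 17 genes, with 6 negative, and summed to 959 and 2180 CPM in wild type and 214 and 153 CPM in knockout. Most of this was globin RNA. Hba-a1, an alpha globin gene, had 385 and 889 CPM in wild type and 84.6 and 64.4 CPM in knockout. Alas2, the heme synthesis enzyme of red cell precursors, had 446 counts in W1, 1016 in W2, 306 in K1 and 336 in K2. The receptor gene Epor had 14 to 45 counts and the spectrin gene Sptb 10 to 20. The 10 genes of the list that were not tested had at most 8 counts in a library, and Rhag, Hemgn and Kel had 0 in all 4. Klf1, a partner factor of GATA1 counted among the relatives of the complex, had 11 to 22 counts. By DESeq2, 15 of 127 tested markers of all lists passed, all lower, beside 0.565% of all genes lower and 0.432% higher. Of these, 4 were globin genes, 3 platelet genes (Pf4, Ppbp and Itgb3), and 8 markers of leukocytes, macrophages, neutrophils and stellate cells. Globin genes Hba-a1, Hba-a2, Hbb-bs and Hbb-bt are near-identical pairs whose reads may be shared.

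Several other blood cell marker lists had negative medians as well. Platelet and megakaryocyte markers had a median of -1.14 over 9 tested of 16 genes, 5 of them negative. They summed to 49.6 and 98.7 CPM in wild type and 21.5 and 21 CPM in knockout. The other 4 were positive: Gp1ba at 1.4, Gp5 at 1.28, Itga2b at 0.54 and Selp at 0.49, with at most 73 counts in a library. Ppbp had 0.817 CPM in W1 and 14 in W2, against 0.555 in K1 and 0.315 in K2. The median of the list was -0.76 without W2 and 0.34 without K1. In these fits the filter on low counts was run anew and different genes could enter. Macrophage and Kupffer cell markers had negative values for 16 of 16 genes (median -1.4, -1.03 without W2). Their sums were 1560 and 1700 CPM in wild type and 887 and 539 CPM in knockout. The groups did not overlap for 9 of the 16, beside 20.1% of all tested genes lower. The Kupffer cell genes Clec4f, Marco, Vsig4 and Timd4 were highest in W2, with W1 below K2, so their groups overlapped. Clec4f had 0 CPM in W1, 59.6 in W2, 0.802 in K1 and 9.02 in K2. Neutrophil markers were lower for 6 of 6 tested of 9 (median -2.78, -1.39 without W2). Their sums were 25.2 and 68.7 CPM in the wild type tumours against 14 and 14.8 CPM. General leukocyte markers were lower for 10 of 12 genes (median -0.67), with sums of 513 and 473 CPM against 288 and 186 CPM. The 2 with positive values were Ikzf1 and the general leukocyte gene Ptprc. Ptprc had 54.6 CPM in W1, 4.22 in W2, 36.5 in K1 and 36.1 in K2 (log2 fold change 0.3). T cell markers were higher for 8 of 10 (median 0.76), with sums of 28.8 and 21 CPM against 28.9 and 35 CPM. Their median was 0.44 without W2. Only Thy1 of the list had a mean of at least 5 CPM, and at that filter the value was -0.16. The part of each in the Lmo2 difference was not tested, and Lmo2 is known to be made in several of these lineages. B cell and germinal centre markers had 2 positive and 5 negative of 7 tested of 14 (median -0.49), blood stem and progenitor markers 5 and 4 of 9 tested of 12 (median 0.03), and of 12 mast cell and basophil genes only Hdc and Kit were tested (1 higher and 1 lower, median 0.16). Mcpt1, Mcpt2, Mcpt8 and Fcer1a had 0 counts in all 4 libraries. In the progenitor list, Hhex, a homeobox factor of blood, endothelium and liver, had 40.1 and 40.8 CPM in wild type and 78.8 and 99.8 CPM in knockout (log2 fold change 1.14, edgeR adjusted p = 0.545). Cd34 went the other way, with 24.2 and 30.7 CPM in wild type and 19.5 and 14.9 CPM in knockout (log2 fold change -0.67, edgeR adjusted p = 0.634). For Ly6a the groups overlapped (log2 fold change 0.15). Stellate cell and fibroblast markers were lower for 10 of 13 genes (median -0.61), hepatocyte markers higher for 10 of 13 (median 0.3, -0.09 without W1 and 1.17 without W2), and liver tumour markers higher for 2 of 5 (median -0.1).

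**Figure D5:**
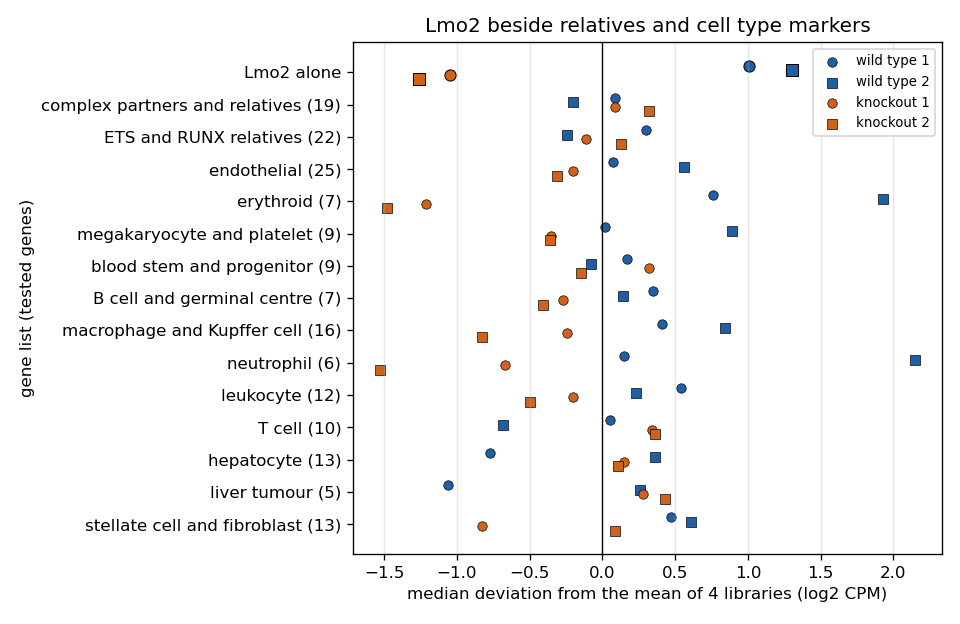
Median deviation of each gene list from the mean of the 4 libraries (x axis, log2 CPM; y axis, list with its number of tested genes; the mast cell list, with 2 tested genes, is left out), with Lmo2 alone in the top row. Lmo2 lies at 1.01 and 1.3 in wild type and -1.05 and -1.26 in knockout, erythroid markers at 0.76 and 1.93 against -1.21 and -1.48, and endothelial markers at 0.07 and 0.56 against -0.2 and -0.31.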

How the data were processed

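Messenger RNA libraries from bulk tumour tissue were analysed, 2 per group. The titles give a group and a number only, and each library was taken as a separate animal. The authors deposited 1 table with raw counts and FPKM. The submitters' processing notes name mm10 as the build and, with no role for any of them, edgeR, StringTie, HISAT2 and SAMtools 1.3.1. The sources used here do not give the strandedness. Of 55487 identifiers, 55227 matched a symbol in GENCODE M21. The deposited FPKM equalled counts scaled by library total and a fixed length (100.0% of genes with at least 10 counts, within 1%). That length was the sum of distinct exons, overlaps counted repeatedly, for 97.7% of 13415 genes with overlapping exons. Levels between genes were therefore compared as CPM per kilobase of merged M21 exons.

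Counts were filtered with filterByExpr, which left 16310 genes, scaled by TMM and tested with edgeR 4.0.16 (quasi-likelihood, two-sided, Benjamini-Hochberg, threshold 0.05) in R 4.3.3. DESeq2 1.42.0 and limma-voom (limma 3.58.1) were alternatives. The fit was checked on simulated data. The filter keeps a low gene through its higher group, so the counts over tested list genes are descriptions. An exact permutation test of 2 against 2 cannot go below p = 0.333. The members, 15 gene lists (228 of 229 symbols found) and alternatives were chosen with earlier results of these data known. The rule for names took all members, the 3 most abundant tested genes of each list and, of the 2 lists of relatives, the 2 with the smallest p, 3 neighbours per side of Lmo2, overlapping genes, and the 5 nearest patterns. Names from marker lists are printed where a result turns on them. Tcf4, Tcf12, Gata4, Gata6, Cbfb, Runx3, Lmo1, Lmo3, Lmo4, Spi1 and the markers beyond the rule were named after their values were seen.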

Additional observations from a re-analysis of the deposited data

How the results depend on the processing

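The log2 fold change of Lmo2 lay between -2.51 and -2.18 under all alternatives run. No other member passed under any of them (smallest adjusted p = 0.268). With all 4 libraries edgeR called 0 genes in each direction, with 645 higher and 709 lower at an unadjusted p under 0.05. DESeq2 called 65 higher, 85 lower and 15 markers, and library totals and limma-voom called 1 lower each. The replicate block, a fit with the replicate number as a term, called 2 higher and 2 lower and no member or list gene. The numbers are only shared names, and replicate differences correlated at 0.121 over genes. Leaving out 1 library gave 0 to 209 genes higher, 0 to 200 lower, 0 to 2 relatives (Tcf12 and Cbfa2t2) and 0 to 19 markers, each with the highest count without W1, and 7 markers were called without W2.

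List medians moved as follows, and the cause was not tested beyond the change in genes or libraries entering. At a filter of 5 CPM they were 0.22 for ETS and RUNX relatives, -2.45 for platelet, 0.09 for B cell and -0.16 for T cell markers. Only Bcl6 and S1pr2 of the B cell list and Thy1 of the T cell list passed that filter. With no filter the medians were -1.16 for erythroid, -0.63 for mast cell and 0.39 for B cell markers. Ranges without 1 library were 0.1 to 0.34 for complex relatives, -0.3 to 0.27 for ETS and RUNX relatives, -1.0 to -0.21 for endothelial, -3.32 to -2.11 for erythroid, -0.81 to 0.34 for platelet, -0.73 to 0.45 for mast cell, -0.33 to 0.36 for progenitor, -0.38 to 0.18 for B cell, -1.73 to -1.03 for macrophage, -3.52 to -1.39 for neutrophil, -0.09 to 1.17 for hepatocyte, -0.7 to 1.48 for liver tumour, -1.26 to -0.28 for stellate cell, 0.44 to 1.06 for T cell and -0.88 to -0.52 for leukocyte markers. Of 68 named genes, 18 changed sign when 1 library was left out, 7 of them by at least the SD between replicates. These 7 ran from -1.63 to 0.33 for Gata2, -1.28 to 0.18 for Plvap, -0.7 to 0.32 for Eng, -1.03 to 0.71 for Trf and -1.96 to 2.67 for Afp, each lowest without W1 and highest without W2. Ssbp3 ran from -0.35 without K2 to 0.34 without K1, and Myc from -0.41 without K1 to 0.31 without K2.

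Tal1, Gata1 and Gata2, with at most 32 counts in any library, are limited by depth. With 2 animals in each group, most of the information on spread is borrowed from other genes. Summing members with genes on the opposite strand was added after seeing the data.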
